A study of Equus caballus with 8 samples.

Results

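The genes described here are the cathepsins CTSL, CTSB, CTSC, CTSD, CTSH, CTSK, CTSS and CTSZ and the cystatins CST3 and CST6. They were taken as a listed set of 10 symbols and matched to horse NCBI Gene IDs. CTSH had no matching Gene ID and was dropped, which left 9 members (7 cathepsins and 2 cystatins) of the 24942 genes in the count table. The samples were endometrial biopsies from 4 healthy Bavarian Warmblood mares (horse, Equus caballus), whose ages the labels do not give. In random order, every mare was biopsied in a pregnant state, with an embryonic vesicle seen by ultrasound on Day 12, and in a cyclic state, on Day 12 of an oestrous cycle, which gave 4 pregnant and 4 cyclic RNA-seq libraries. Both states shared ovulation induced with 1500 IU of human chorionic gonadotropin and a uterine flush before the biopsy, and the protocol describes insemination for all mares. A biopsy holds glands, luminal epithelium, stroma, vessels and immune cells together, so fewer cells of a type and less RNA per cell cannot be told apart.

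Cathepsins are proteases that mostly work in the acid interior of the lysosome, where they break down proteins delivered by endocytosis and autophagy. Some are also secreted and cut extracellular matrix. Most members are cysteine proteases of the papain family, while CTSD is an aspartic protease. Cystatins are inhibitors that bind the active site of papain-like cathepsins, chiefly outside the cell. In the uterus of several mammals, cathepsins and cystatins are among the products of the glandular and luminal epithelium during early pregnancy, and CTSL is a known member of the uterine secretions.

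Total counts per library ran from 9812053 in the pregnant library of mare 1 to 16703347, and each of the other 7 libraries had at least 15485568. Levels are given as CPM, the counts of a gene scaled to a fixed library total, after TMM scaling, a correction for differences in library composition. They are not divided by gene length, so they are compared between libraries for 1 gene and not between genes. Each of the 9 members passed the filter on low counts, and the lowest count of any member in any library was 116, for CST6. The comparison asked which transcripts of the endometrium differ in the presence of a conceptus. A gene is said to have risen or fallen when its adjusted p was below 0.05 in edgeR's quasi-likelihood test with the mare as a block, adjusted over all 15342 genes tested.

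Of the 9 members, 3 rose (CTSB, CTSD and CTSK) and 1 fell (CTSL) in pregnancy. Over all genes tested, 16.7% changed, 8.53% upwards and 8.19% downwards. The 4 changed members were of very unequal size. CTSL fell to less than 40% of its cyclic level, while the 3 risers gained between 19.6% and 30.6%. The median log2 fold change of the 9 members was 0.18, against 0.00 over all genes tested. In an edgeR fit without the mare as a block 0 of 9 members changed, against 2.54% of all genes. In that fit 4 of 9 members had an unadjusted p below 0.05, against 17.8% of all genes. Without mare 1, which gave the shallowest library, 2 members changed (CTSL and CTSK), against 8.23% of all genes. Without mare 4 these 2 changed again, against 13.4%, and without mare 3 they changed together with CST3, against 12.1%.

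CTSL encodes cathepsin L, a strong endopeptidase of the lysosome that is also secreted by epithelia. Its cyclic levels were 327, 208.5, 55.1 and 444 CPM in mares 1 to 4. Its pregnant levels were 122, 72.3, 23.5 and 159 CPM in the same order of mares. Within each mare the pregnant library was the lower one, but the groups overlapped widely, because mare 3 was low in both states and its cyclic value lay below 3 of the 4 pregnant values. The mares stood in the same order in both states, with mare 4 highest, then mares 1, 2 and 3.

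The log2 ratio of the pregnant to the cyclic library of a mare was -1.42, -1.53, -1.23 and -1.48 for CTSL in mares 1 to 4. The fall was therefore near the same proportion in animals whose absolute levels differed 8.06-fold in the cycle and 6.77-fold in pregnancy. The fitted log2 fold change was -1.42 ± 0.08 (SE, 4 pairs; adjusted p = 3.13e-05), a 2.67-fold lower level, and its unadjusted p was the fifth smallest of all genes tested. Without the mare as a block the same change had an adjusted p of 0.364. Leaving out any 1 mare gave log2 fold changes from -1.48 to -1.39, with adjusted p up to 7.49e-04.

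CTSL stood apart from the other members within each animal. The log2 ratio of CTSL minus that of another member lay between -2.08 and -1.03 over the 8 other members and the 4 mares. The smallest distance was to CST6 in mare 3 and the largest to CST3 in mare 1. These distances are a description and were not tested.

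**Figure D1:**
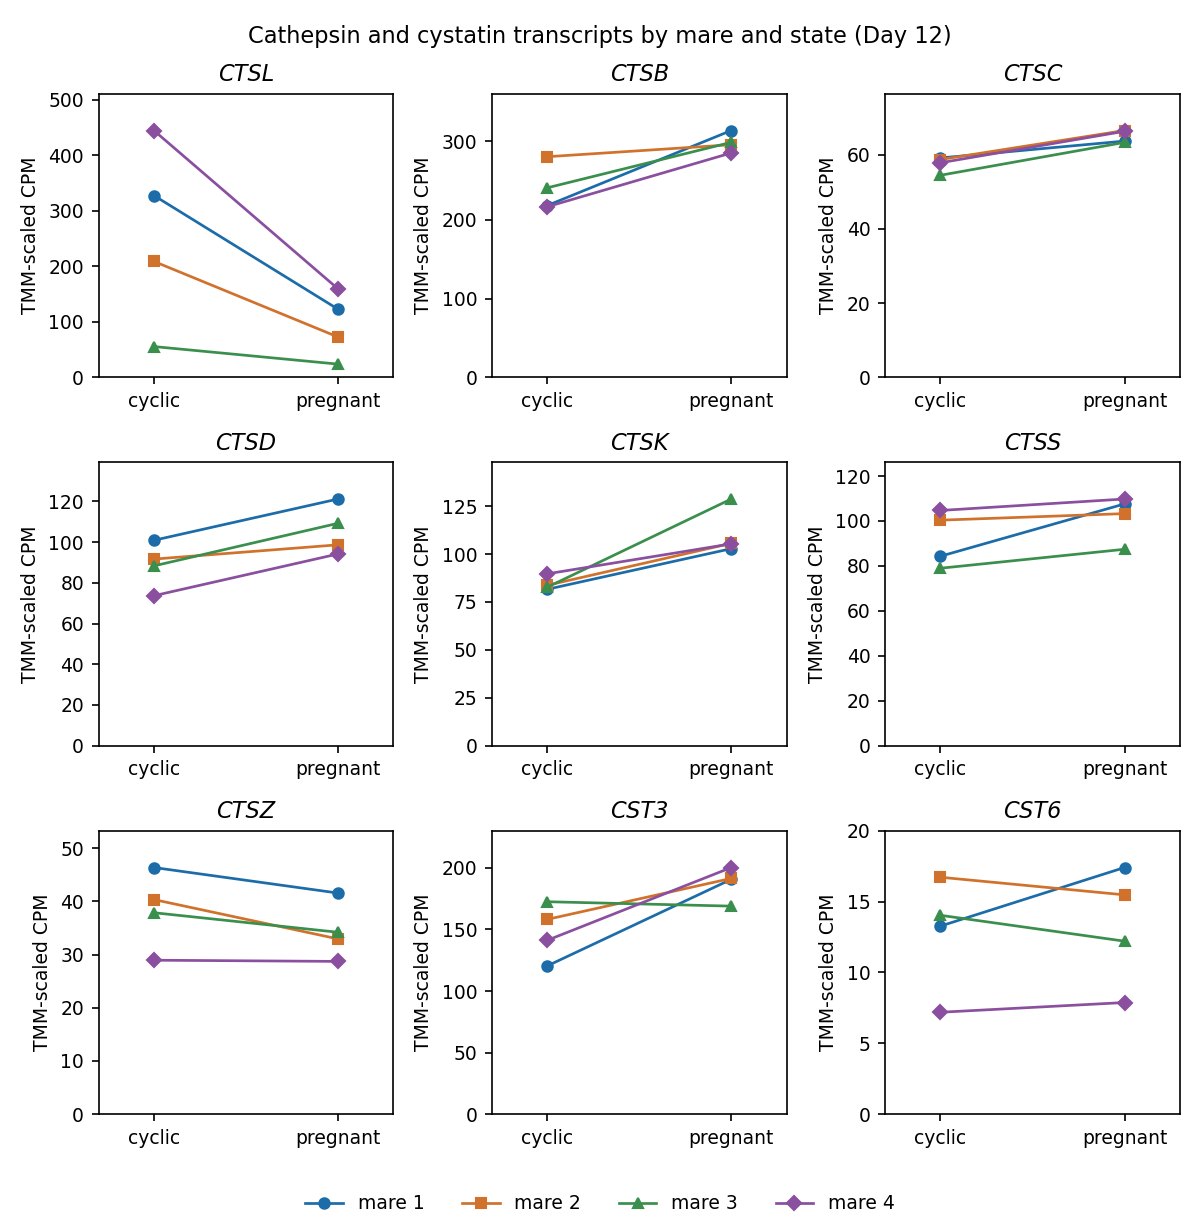
TMM-scaled CPM (y axes, from 0) of the 9 members in the cyclic and the pregnant library (x axes) of each mare, with 1 coloured line per mare joining its 2 libraries. CTSL fell in every mare from 4 very different starting levels, whereas the lines of CTSB, CTSC, CTSD, CTSK and CTSS slope upwards in every mare.

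Among the other cysteine cathepsins, CTSK and CTSB rose. CTSK encodes cathepsin K, a collagen-degrading protease best known from osteoclasts and also made by fibroblasts. Its cyclic levels of 81.6, 83.7, 82.7 and 89.7 CPM (mares 1 to 4) all lay below its pregnant levels of 103, 105.6, 129 and 105.3 CPM. The log2 fold change was 0.39 ± 0.08 (SE; adjusted p = 0.00991), a 1.31-fold rise. The pregnant library of mare 3 was the high one, and without that mare the log2 fold change was 0.29 (adjusted p = 0.0355).

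CTSB encodes cathepsin B, a lysosomal protease with both endopeptidase and carboxypeptidase activity. It had 218, 280.4, 241 and 217 CPM in the cyclic and 314, 296, 299 and 285 CPM in the pregnant libraries of mares 1 to 4. The groups did not overlap, although the cyclic value of mare 2 came close to the pregnant ones. The pregnant libraries were also the more alike, with a coefficient of variation of 3.95% against 12.4% in the cycle. The log2 fold change was 0.33 ± 0.09 (SE; adjusted p = 0.0327). CTSB did not pass once mare 1 (adjusted p = 0.175), mare 3 (adjusted p = 0.0846) or mare 4 (adjusted p = 0.0958) was left out.

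CTSC, CTSS and CTSZ did not pass. CTSC, also called dipeptidyl peptidase I, activates granule serine proteases of immune cells by trimming their ends. Its cyclic levels were 59.2, 58.8, 54.5 and 57.9 CPM and its pregnant levels 63.7, 66.6, 63.4 and 66.4 CPM (mares 1 to 4). These groups did not overlap, and CTSC had the smallest spread of all members, with coefficients of variation of 3.68% and 2.61%. Its log2 fold change of 0.18 ± 0.06 (SE) had an adjusted p of 0.0900. In all, 3 of 9 members (CTSB, CTSC and CTSK) had groups that did not overlap, against 10.7% of all genes tested.

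CTSS encodes cathepsin S, which trims the invariant chain of MHC class II in antigen-presenting cells. The cyclic libraries held 84.3, 100.3, 79.0 and 104.7 CPM and the pregnant ones 107.6, 103, 87.4 and 109.8 CPM of CTSS. It was higher in 4 of 4 mares, by very little in mares 2 and 4, and the groups overlapped (log2 fold change 0.15 ± 0.07 SE, adjusted p = 0.189). In the RefSeq gene table of the TB-T2T horse assembly, CTSS and CTSK are neighbouring genes. The difference between the changes of these neighbours was not tested.

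CTSZ encodes cathepsin Z, a carboxypeptidase that can bind integrins. Levels of 46.4, 40.3, 37.9 and 28.9 CPM in the cyclic libraries stood against 41.6, 32.9, 34.2 and 28.7 CPM in the pregnant ones. It was lower in 4 of 4 mares, almost level in mare 4, and the groups overlapped (log2 fold change -0.15 ± 0.08 SE, adjusted p = 0.212). On this TMM scale CTSL and CTSZ were the 2 members lower in every mare. In mare 4 the raw counts of CTSZ were 467 in the cyclic and 485 in the pregnant library.

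CTSD encodes cathepsin D, the main aspartic protease of lysosomes and, as background, an oestrogen-induced gene in several tissues. It rose from 101, 91.7, 88.3 and 73.7 CPM to 121, 98.7, 109 and 94.2 CPM in mares 1 to 4. The groups overlapped, since mare 1 was high and mare 4 low in both states, but each mare was higher when pregnant. The log2 fold change was 0.26 ± 0.07 (SE; adjusted p = 0.0289). Leaving out mare 1, 3 or 4 gave adjusted p of 0.120, 0.0953 and 0.0944 for CTSD.

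Neither of the cystatin members passed. CST3 encodes cystatin C, a secreted inhibitor of cysteine cathepsins found in most body fluids. Its cyclic levels were 120.4, 158, 172.5 and 141 CPM, and its pregnant levels were 191, 191, 169 and 200.3 CPM. It was higher in mares 1, 2 and 4 and level in mare 3, whose cyclic library had the highest cyclic value and whose pregnant library had the lowest pregnant one. The log2 fold change was 0.35 ± 0.11 (SE; adjusted p = 0.0581). It passed without mare 3 (log2 fold change 0.47, adjusted p = 0.0161), in DESeq2 (adjusted p = 0.0288) and after thinning to equal depth (adjusted p = 0.0384), so it lay close to the threshold.

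CST6 encodes cystatin E/M, an inhibitor of CTSL and of legumain that is prominent in skin. Cyclic levels of 13.3, 16.71, 14.03 and 7.19 CPM stood against pregnant levels of 17.4, 15.5, 12.2 and 7.87 CPM. The level was higher in mares 1 and 4 and lower in mares 2 and 3. Its log2 fold change of 0.05 ± 0.12 (SE; adjusted p = 0.843) changed sign without mare 1 and after thinning.

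**Figure D2:**
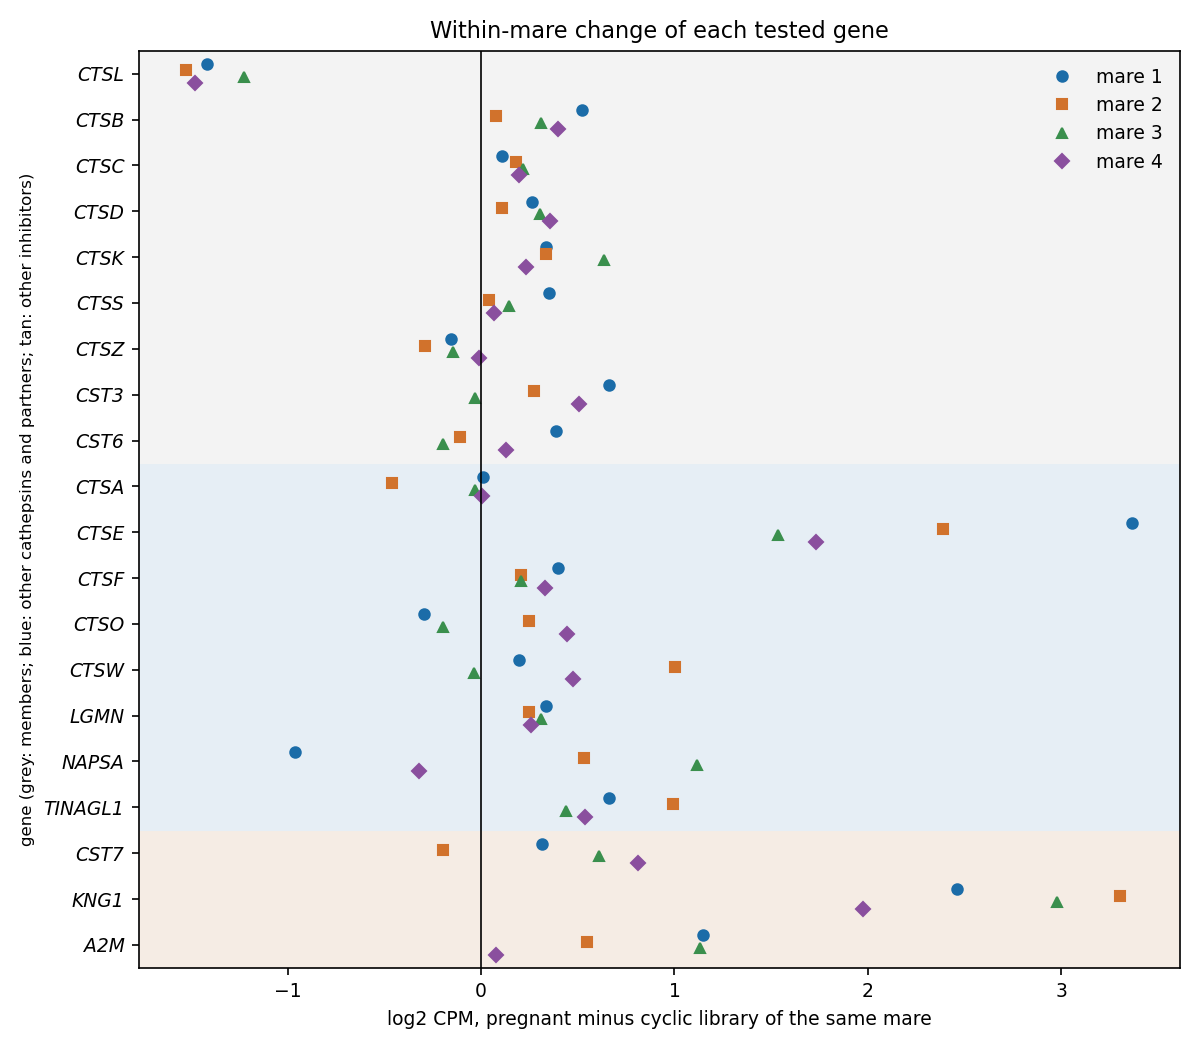
Log2 CPM of the pregnant minus the cyclic library of the same mare (x axis) for each tested gene (y axis), with 1 point per mare and 0 marked by the vertical line. The 4 points of CTSL lie between -1.53 and -1.23, those of the other 8 members between -0.29 and 0.66, and those of CTSE and KNG1 at 1.53 or above.

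Besides the state, some members differed between animals. The same model tested the 3 mare terms together, and 3 of 9 members passed (CTSL, CTSZ and CST6), against 15.9% of all genes tested. The means over both states of CTSL spanned 2.88 log2 units between mares, a 7.36-fold range that exceeded that of 99.2% of the genes tested (adjusted p for mares = 1.43e-05). CTSZ spanned 1.52-fold (adjusted p = 0.0269) and CST6 2.12-fold (adjusted p = 0.0122). Mare 4 had the lowest CTSZ and CST6 in both states and the highest CTSL in both. CTSC and CTSK, in contrast, spanned 1.06-fold and 1.13-fold between mares.

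**Figure D3:**
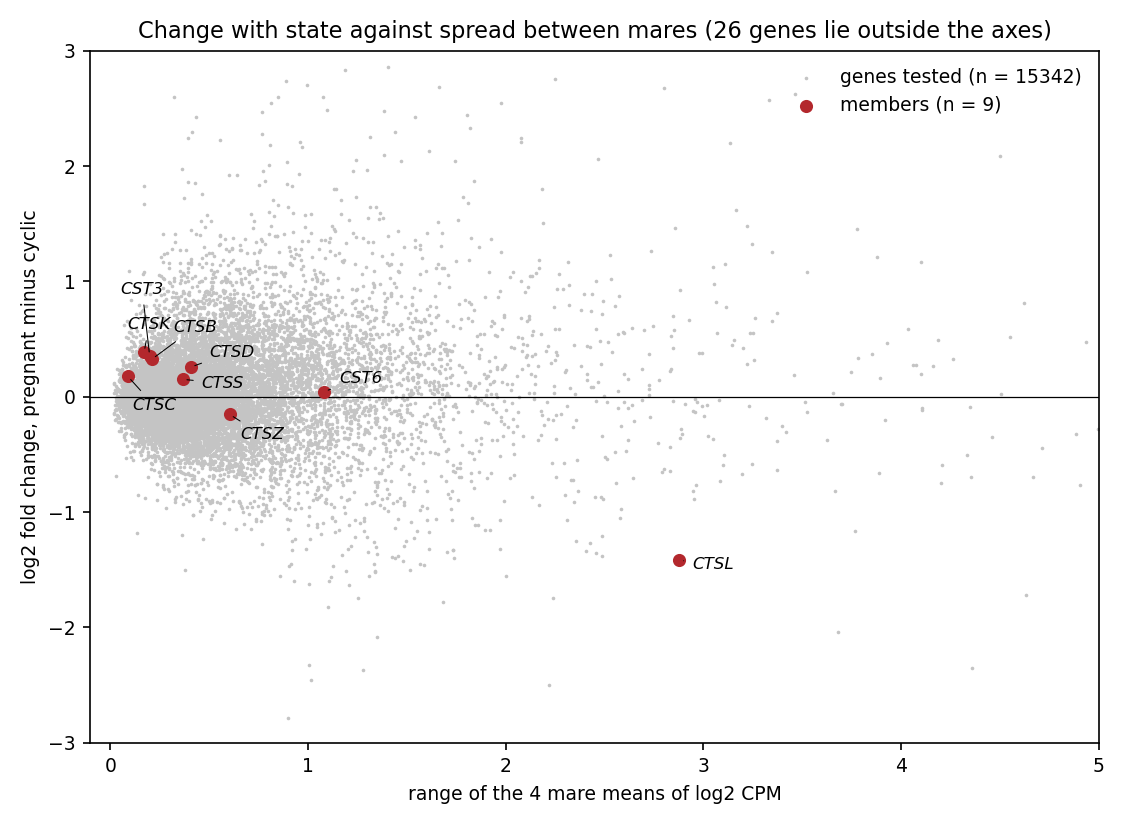
Fitted log2 fold change, pregnant minus cyclic (y axis), against the range of the 4 mare means of log2 CPM (x axis) for 15342 tested genes (grey) and the 9 members (red). CTSL lies alone among the members at a range of 2.88 and a change of -1.42, while the other 8 members lie between -0.15 and 0.39 on the y axis.

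The way members varied together was described by Pearson's r of log2 CPM over the 8 libraries, which come as 2 libraries from each of 4 mares and share the state. The highest values were 0.81 between CTSB and CST3 and 0.77 between CTSZ and CST6. The lowest were -0.65 between CTSL and CTSK and -0.58 between CTSL and CTSB. Over all named genes tested, those most like CTSL were CDKL2, a protein kinase (r = 0.99), GASK1B (r = 0.99) and NLGN1, a cell adhesion protein of the neuroligin family (r = 0.99). GASK1B fell (log2 fold change -1.07 ± 0.10 SE, adjusted p = 4.21e-04) and spanned 1.97 log2 units between mares. CDKL2 also fell (-0.52 ± 0.09 SE, adjusted p = 0.00502), and NLGN1 did not pass (-0.46 ± 0.16 SE, adjusted p = 0.0922). Choosing genes by r over both states favours those that move with the member, so their changes are descriptions.

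For CTSK the most alike genes were GPNMB, a lysosomal and cell surface glycoprotein (r = 0.99), PLAT, the tissue plasminogen activator (r = 0.98), and LMOD1, a smooth muscle protein (r = 0.97). Each of these rose, with log2 fold changes of 1.71, 1.25 and 0.83 and adjusted p of 0.00357, 0.00218 and 0.00213. For CTSB they were the growth factor PTN, the GTPase RND1 and the tubulin TUBB4A (r = 0.96 each). PTN and RND1 rose, with log2 fold changes of 0.37 and 0.92, and TUBB4A had 0.32 with an adjusted p of 0.0928. For CTSD they included CCDC167 (r = 0.97) and AGTRAP, a partner of the angiotensin receptor (r = 0.96). AGTRAP rose, with a log2 fold change of 0.23 (adjusted p = 0.0488), and CCDC167 had 0.35 with an adjusted p of 0.0591. The genes like CTSK, CTSB and CTSD were chosen by r over both states too, so their rises are descriptions.

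A further list held 11 relatives and partners of the cathepsins, of which 9 matched a Gene ID and 8 were tested. Of these, 4 of 8 rose (CTSE, CTSF, LGMN and TINAGL1), against 8.53% of all genes, and the median log2 fold change was 0.29. Without mare 1, 2 rose (CTSE and TINAGL1), where 8.23% of all genes changed in either direction. Without the mare as a block the same 2 rose, where 2.54% of all genes changed. CTSG and CTSV had no matching Gene ID. Since CTSV is the closest relative of CTSL in human, whether an unnamed horse copy shares reads with CTSL was not tested.

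CTSE encodes cathepsin E, an aspartic protease of endosomes in epithelia and immune cells. Its cyclic levels of 2.13, 2.76, 4.28 and 4.65 CPM lay far below its pregnant levels of 23.2, 15.0, 12.7 and 15.7 CPM (mares 1 to 4). The groups did not overlap, and mares 1 and 2, with the lower cyclic levels, had the larger ratios. The log2 fold change was 2.24 ± 0.31 (SE; adjusted p = 0.00712), a 4.74-fold rise that rests on 33 to 75 counts in the cyclic libraries. Without mare 2 the adjusted p of CTSE was 0.0545.

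LGMN encodes legumain, a lysosomal protease that cuts several cathepsins into their 2-chain forms and is itself inhibited by CST6. Its cyclic values of 74.8, 72.8, 69.7 and 78.9 CPM did not overlap the pregnant ones of 94.6, 86.6, 86.5 and 94.3 CPM. The within-mare log2 ratios lay between 0.25 and 0.34, and the fitted one was 0.29 ± 0.06 (SE; adjusted p = 0.0117). LGMN did not pass when mare 1 was left out (adjusted p = 0.0773).

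TINAGL1, a secreted matrix protein related to cathepsins but without protease activity, rose from 16.5, 17.7, 23.2 and 23.1 CPM to 26.2, 35.3, 31.4 and 33.5 CPM. Its groups did not overlap (log2 fold change 0.66 ± 0.10 SE, adjusted p = 0.00337). CTSF, a cysteine cathepsin with a cystatin-like stretch in its proregion, rose from 159, 152, 175 and 130.1 CPM to 210.1, 175.5, 202 and 163 CPM, with overlap (0.29 ± 0.07 SE, adjusted p = 0.0225). CTSF had adjusted p of 0.132 and 0.0713 when mare 1 or mare 4 was left out.

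CTSA, CTSO, CTSW and NAPSA did not pass. CTSA, a serine carboxypeptidase that protects lysosomal glycosidases, measured 197 ± 12.9 CPM in cyclic and 182 ± 17.9 CPM in pregnant libraries (SD, n = 4 each). It overlaps the genes PLTP and NEURL2 in the RefSeq table, and the library kit does not mark the strand, so its reads cannot be fully told from theirs. CTSK, CTSE, LGMN, TINAGL1 and NAPSA overlap long noncoding RNA genes that were not counted, and CTSO overlaps TDO2. The share of such reads in their counts was not tested. CTSW, a cathepsin of cytotoxic lymphocytes, had 28.9 ± 8.52 and 38.9 ± 12.7 CPM (SD, n = 4 each) and a fitted difference of 0.41 ± 0.16 log2 units (SE, adjusted p = 0.145). Beside it, 3 of the 13 T and NK cell markers listed, which include CTSW, rose (CD3D and GZMK with the smallest p), against 8.53% of all genes. In all 12 of the 13 had a positive difference, with a median of 0.41, and their part in the CTSW values was not tested. Mare 2 had the largest differences, with median log2 ratios of these markers of 0.08, 0.98, 0.19 and 0.40 in mares 1 to 4. The log2 ratios of CTSW were 0.19, 1.00, -0.04 and 0.47 in the same order. Without mare 2 the fitted difference of CTSW was 0.20 (adjusted p = 0.295). CTSO and NAPSA had mean levels between 1.86 and 2.55 CPM in either state.

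Of 16 other cystatins and inhibitors listed, 10 matched a Gene ID and 3 were tested. KNG1 encodes kininogen, which carries cystatin-like domains that inhibit cysteine cathepsins and is also the precursor of bradykinin. KNG1 rose from 9.34, 6.09, 10.9 and 7.75 CPM to 52.1, 61.4, 87.1 and 30.8 CPM in mares 1 to 4. Each pregnant value lay well above the highest cyclic one, with mare 4 the lowest of the pregnant libraries. The log2 fold change of KNG1 was 2.70 ± 0.23 (SE; adjusted p = 0.00175), a 6.51-fold rise that passed in each of the 14 alternatives.

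In the RefSeq gene table KNG1 lies at the end of a row of related genes, AHSG, FETUB, HRG and KNG1. FETUB and HRG had 0 counts in all 8 libraries, and AHSG had 1 count in a single library. A count of 0 allows at most 3 counts, or 0.169 to 0.298 CPM depending on the library, counting error only. The type 2 cystatins CST8, CST11 and CSTL1 had 0 counts as well, and CSTA, the intracellular cystatin A, had 0 to 4 counts per library.

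A2M encodes alpha-2-macroglobulin, a broad protease trap. Its cyclic levels were 56.5, 64.3, 77.1 and 129.6 CPM, and its pregnant levels were 125, 94.0, 169 and 137 CPM. It was higher in 4 of 4 mares, with a nearly level value in mare 4, and did not pass (log2 fold change 0.72 ± 0.21 SE, adjusted p = 0.0886). It passed without mare 4 (adjusted p = 0.00462) and in 4 other alternatives. CST7, the leukocyte cystatin F, had 0.930 ± 0.510 and 1.17 ± 0.303 CPM (SD, n = 4 each; adjusted p = 0.437). CST7 overlaps APMAP in the RefSeq table, and with 127 counts in all, against 10268 for APMAP, its reads cannot be fully told from those of APMAP without strand.

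**Figure D4:**
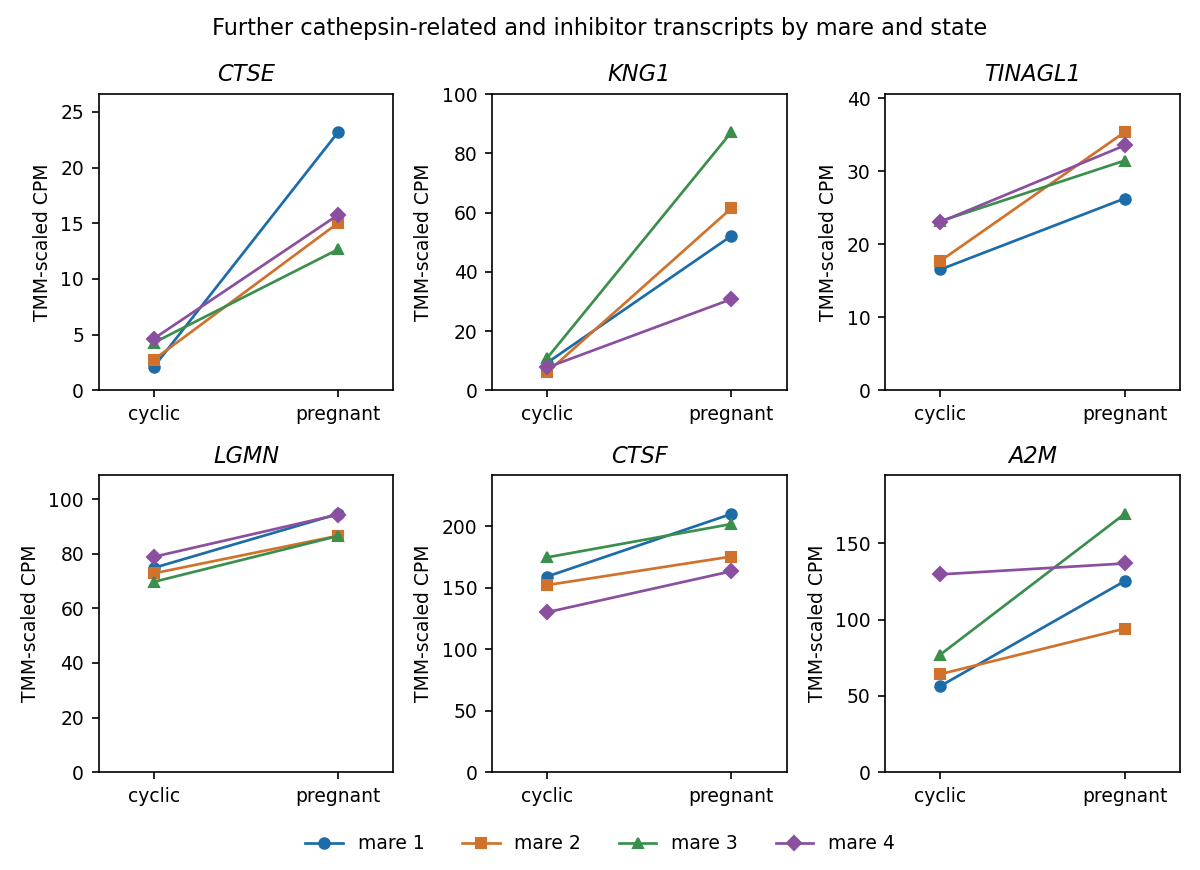
TMM-scaled CPM (y axes, from 0) of 5 further genes that rose (CTSE, KNG1, TINAGL1, LGMN and CTSF) and of A2M, which did not pass, in the cyclic and the pregnant library (x axes) of each mare, with 1 line per mare. The lines slope upwards in every mare, and those of CTSE and KNG1 leave low cyclic levels of at most 4.65 and 10.9 CPM.

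The wider lysosome did not move in 1 direction. Of 55 tested lysosome genes outside the cathepsin family, 5 rose and 6 fell, against 8.53% and 8.19% of all genes, and the median log2 fold change was 0.00. The 5 risers were GM2A, ACP5, MITF, LIPA and NAGPA. GM2A, the activator protein that presents GM2 ganglioside for breakdown, rose from 82.6 ± 52.3 to 417 ± 187 CPM (SD, n = 4 each), or by 2.44 ± 0.15 log2 units (SE, adjusted p = 2.04e-04). ACP5, the tartrate-resistant acid phosphatase also known as uteroferrin, rose 1.75-fold from 477 ± 111 to 833 ± 170 CPM, and MITF, a transcription factor of lysosomal genes, rose 1.75-fold as well. The acid lipase LIPA and the uncovering enzyme NAGPA rose 1.48-fold and 1.46-fold.

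The genes that fell included NPC2, TFEB, GNPTAB, GRN and NAGLU. TFEB, a master regulator of lysosome genes, fell by 0.40 ± 0.07 on the log2 scale (adjusted p = 0.00429), and the cholesterol carrier NPC2 fell by 0.49 ± 0.11 (adjusted p = 0.0167). GNPTAB, which makes the mannose 6-phosphate tag that sorts cathepsins and other hydrolases to lysosomes, fell by 0.33 ± 0.08 (adjusted p = 0.0192). The receptors of that tag, M6PR (0.12 ± 0.06 SE, adjusted p = 0.217) and IGF2R (-0.28 ± 0.09 SE, adjusted p = 0.0529), did not pass. Without mare 1 the list had 7 changed genes (4 higher, 3 lower), against 8.23% of all genes. Without mare 3 it had 7 (5 higher, 2 lower), against 12.1% of all genes. Without the mare as a block it had 2, against 2.54% of all genes. GNPTAB, GRN and NAGLU did not pass when library totals replaced TMM (adjusted p 0.0691, 0.0792 and 0.159).

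**Figure D5:**
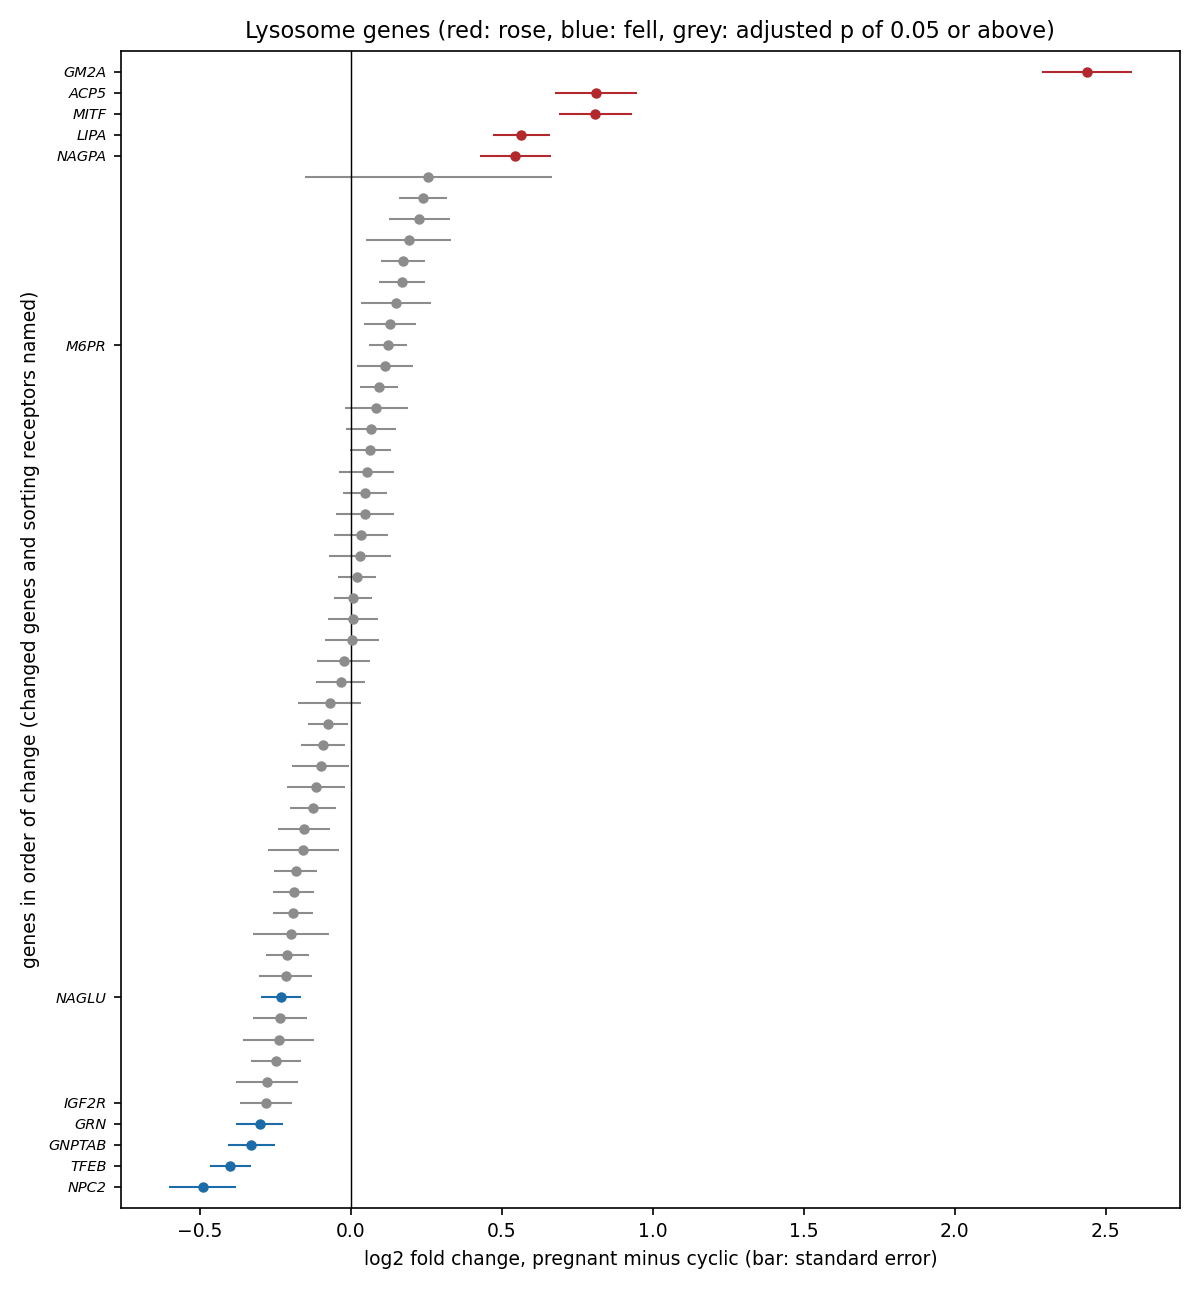
Log2 fold change, pregnant minus cyclic, with its standard error (x axis) for 54 tested lysosome genes (y axis, in order of change, with the changed genes and the receptors M6PR and IGF2R named); red points rose, blue points fell and grey points did not pass. Apart from GM2A at 2.44, the values lie between -0.49 and 0.81, on both sides of 0.

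Markers of cell types moved beside these changes, and their part in them was not tested. Over all genes tested, 8.53% rose and 8.19% fell. Of 18 tested epithelial markers 5 fell, among them KRT7 (-0.59) and PROM1 (-0.36), and 5 others had a positive difference. The median log2 fold change of the 18 was -0.11. Their summed level was 2743, 3244, 2820 and 2763 CPM in the cyclic libraries of mares 1 to 4. It was lower in the pregnant library of each mare, at 2603, 2887, 2536 and 2698 CPM. The 5 tested gland markers, which include P19 (uterocalin), had log2 fold changes from -0.32 to -0.05 and adjusted p of at least 0.0870. Of 17 stromal markers 12 rose, among them DPT (1.07) and MFAP4 (1.26), while COL1A2 did not pass. The median was 0.42, and 3 of the 17 had a negative difference. The summed stromal level was higher in pregnancy in mare 1 (4342 to 6019 CPM) and mare 3 (4357 to 5599 CPM). It was lower in mare 2 (5606 to 5278 CPM) and mare 4 (5742 to 5093 CPM). Of 15 endothelial markers 12 rose (median 0.86), among them CLDN5, CDH5 and VWF. Of 10 smooth muscle markers 5 rose and 1 fell (median 0.79), and the risers included RGS5 and LMOD1. Of 17 tested macrophage markers 1 rose (CD14, 0.56) and 14 had a positive difference, with a median of 0.22 and sums of 240.0 to 351 and 292 to 365 CPM. Of 5 osteoclast markers, which stand beside CTSK as background, the sum was almost wholly ACP5, and DCSTAMP, OCSTAMP and CALCR had mean levels of at most 0.232 CPM. Of 7 conceptus markers, AFP, TTR, APOA4, HAND1 and CDX2 had 0 counts in all 8 libraries. The other two, ELF5 and GCM1, were tested and did not pass, and the summed level of the list was 3.39 to 5.22 CPM in cyclic and 1.93 to 10.2 CPM in pregnant libraries.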

How the data were processed

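Poly(A) RNA libraries of 8 endometrial biopsies were analysed. The authors deposited raw read counts for 24942 NCBI Gene IDs. A second table that the authors deposited holds a scaled signal for 14037 genes. Its values equal CPM scaled by TMM over the counts of those 14037 genes (100% within a relative tolerance of 1e-06). The table served only for that comparison. CPM values printed here use TMM factors from the 15342 genes tested. The submitters' processing notes name Trimmomatic 0.32.2 and HISAT2 2.0.3. Which genome build, annotation and counter produced the counts is not given in the sources used here. RNA integrity numbers ran from 8.3 to 9.2, per the labels.

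Symbols came from the RefSeq gene table of the TB-T2T assembly, matched by Gene ID (21420 of 24942 matched, 85.9%). No coordinates and no sequences are printed, because no genome or sequence of the members was used here.

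Counts were tested in R 4.3.3 with edgeR 4.0.16: filterByExpr by group with a minimum count of 10, TMM, the robust quasi-likelihood F-test with the mare as a block, and Benjamini-Hochberg adjustment over 15342 genes. An SE is the log2 fold change divided by the square root of F. Within-mare ratios use log2 CPM with a prior count of 2. The deviations of a mare's libraries from the group means were correlated across genes (r = 0.54, 0.38, 0.48 and 0.47), and the series' design text states that each mare gave both samples. No library pair agreed within sampling noise (chi-square per degree of freedom of at least 24.6). DESeq2 1.42.0 and limma 3.58.1 served as alternatives. No sample column was left unused (0 columns).

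Named genes were all members, the changed genes of the cathepsin and inhibitor lists, up to 6 changed lysosome genes in each direction and the 3 genes most correlated with each changed member, of which 2 genes are not reported here. Other genes of the lists are named as examples and were chosen after their values were seen. Cell type lists are summarised, with up to 2 changed genes of the smallest p, and some others of the list, named where a result stands beside them. The members and lists were chosen with earlier results of these data known, so counts over them are descriptions.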

Additional observations from a re-analysis of the deposited data

Results flagged for a closer look

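CTSK in the pregnant group is singled out because 1 library stood apart from the other 3. The pregnant library of mare 3 had 128.7 CPM, against 103 to 105.6 CPM in the other pregnant libraries, and its gap to the nearest of them was 0.893 of the whole range, above Dixon's 95% critical value for 4 samples. Of 40 groups of 4 libraries tested over 20 genes this was the 1 flag, and chance flags about 1 in 20 groups. Without mare 3 CTSK kept its call, with a log2 fold change of 0.29 and an adjusted p of 0.0355.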

How the results depend on the processing

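Each result was recomputed under 14 alternatives (13 for CST7, absent under the stricter filter). Without the mare as a block (no pairing) 389 genes, 0 members, 2 other cathepsins (CTSE and TINAGL1) and 2 lysosome genes changed, in place of 2565, 4, 4 and 11. CTSE, TINAGL1, KNG1 and MITF kept their calls in that fit, and the replicate block changed the call of each other changed member, relative and inhibitor. Over the fits without 1 mare the ranges were 1266 (without mare 1) to 2057 genes, 2 to 4 members, 2 to 4 other cathepsins, 1 to 2 other inhibitors and 7 to 10 lysosome genes. The other inhibitors numbered 2 (KNG1 and A2M) in DESeq2, limma-voom, the likelihood ratio test and the non-robust fit. Direction changed for 3 genes that did not pass: CST6 (-0.027 thinned; -0.069 to 0.12 without 1 mare), CTSO (-0.060 thinned; -0.080 to 0.17 without 1 mare) and NAPSA (-0.16 to 0.48 without 1 mare). Scaled by library totals, 62.1% of 2280 changed genes were higher, against 51.0%, while the members' calls remained 3 higher and 1 lower (4 shared), and without the block 68.9% were higher. CTSL passed in 13 of 14 alternatives, CTSK in 13, CTSD in 10, CTSB in 9 (also lost in the likelihood ratio test, adjusted p = 0.0617) and CST3 in 3. Lowest depth limits CTSO, NAPSA and CST7, with 7 to 72 counts per library.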
